A study of Mus musculus with 4 samples.

Results

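The genes of the mitochondrial respiratory chain and ATP synthase were followed in alveolar macrophages, the resident phagocytes of the lung airspaces, sorted from wild-type (WT) mice and from mice that lack osteopontin (OPNKO, Spp1-/-). Members were chosen by symbol alone: the Nduf genes of complex I, Sdha to Sdhd of complex II, the Uqcr genes with Cyc1 and Cycs of complex III, the Cox4 to Cox8 genes of complex IV, the Atp5 genes of complex V and every gene of the mitochondrial genome. This gave 107 of the 16755 rows of the expression table, 91 from the nuclear and 16 from the mitochondrial genome. All 107 passed the filter on low values (a mean normalised read count of at least 1). The pattern also takes in 10 nuclear genes that are not subunits, mostly assembly factors of complex I, and 5 alternative forms of complex IV subunits or their relatives, so 76 rows are nuclear genes for the usual subunits and cytochrome c.

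RNA was sequenced in bulk from 2 libraries of each genotype, both on the C57BL6 strain and both carrying a bleomycin treatment tag. Bleomycin is a drug given to mice to injure the lung and cause fibrosis, and the column names of the table give day 14. A separate protocol field states that nothing was given to the animals or cells, and for 2 of the 4 samples the title and the genotype tag name opposite genotypes. Groups were taken from the titles. Spp1, the gene that encodes osteopontin, had normalised read counts of 545719 and 606517 in the libraries titled WT against 4106 and 3847 in those titled OPNKO. Age, sex and the number of animals behind a library are not given in the labels, nor is it said that replicates are separate animals. The p-values therefore measure the spread between these libraries, which may be technical.

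The respiratory chain passes electrons from NADH (complex I) and succinate (complex II) through complex III and the soluble carrier cytochrome c to oxygen at complex IV, and pumps protons across the inner mitochondrial membrane. Complex V, the ATP synthase, lets the protons flow back through a ring of c subunits and uses them to make ATP. Complexes I, III, IV and V are built from subunits of both genomes, while complex II is wholly nuclear. Alveolar macrophages live in an airspace rich in oxygen and lipid and are known for relying on oxidative metabolism.

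Reads counted in genes totalled 41254959 and 44759630 for the WT libraries and 39980049 and 35793800 for the OPNKO libraries. Of the 12 alveolar macrophage markers with a row, all were expressed, including the scavenger receptor gene Marco and the integrin gene Itgax; 2 were higher and 2 lower in OPNKO, and their summed counts were 924282 and 926751 in WT against 594526 and 706639 in OPNKO. Without Chi3l3, a chitinase-like secreted protein and the most abundant of them, the other 11 summed to 289432 and 282961 against 283417 and 295165, and the median log2 fold change of all 12 was 0.02. Markers of other cells moved with genotype too. The 9 T cell and thymocyte markers summed to 2534 and 3106 against 8501 and 13409 for OPNKO, with 6 of the 9 higher. The 5 plasma cell markers summed to 40049 and 48037 against 16121 and 16596 for OPNKO, with 4 lower, and the 3 monocyte markers to 17424 and 18092 against 8301 and 7833, with 2 lower. No marker of the fibroblast (5), endothelial (4), epithelial (4), erythroid (3), neutrophil (3) or muscle (4) lists was called. All these lists but muscle had their highest sum in the second WT library. Its fibroblast sum was 5095 where the others had 429 to 882, and its endothelial sum 1586 against 467 to 612. For epithelial markers it had 2284 against 1161 to 1409, for erythroid 379 against 42.3 to 118 and for neutrophil 1967 against 998 to 1120. Among all these markers only Camp, a neutrophil granule gene, was at 3 or less in every library. The part of these cells in the values below was not tested, and in bulk RNA fewer cells of a type and less RNA per cell cannot be told apart.

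Levels were compared between genes as normalised reads per kilobase of the principal transcript, averaged over the 4 libraries. The mitochondrial protein-coding genes stood far above the nuclear ones. At the top was mt-Co1, the catalytic core of complex IV, at 290103, followed by mt-Nd1 of complex I at 106014 and mt-Cytb, the only mitochondrially encoded subunit of complex III, at 102437. The lowest of the 7 mitochondrial genes was at 21938. Nuclear subunits had medians of 1709 for complex I (36 genes), 3663 for complex II (4), 2496 for complex III with cytochrome c (10), 4179 for complex IV (11) and 4105 for complex V (15). The most abundant nuclear member per kilobase was Cox4i1, an early-assembling complex IV subunit, at 13025, followed by Atp5b, the catalytic beta subunit of the ATP synthase, at 12049. Every complex was thus represented, and the usual subunits of the table ranged down to 50.5 reads per kilobase for Ndufb2 of complex I. That value depends on a principal transcript of 4371 bases. The mean count of Ndufb2, 221, was above that of Ndufb4, 167, which was at 172 per kilobase.

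By limma, 1 of the 107 members was called: Atp5g3, a nuclear gene for the c subunit of the ATP synthase ring, was lower in OPNKO. Limma called no member higher, while the authors' deposited table had 2 higher and 2 lower members past an adjusted p under 0.05. Over all 16431 genes tested by limma with Benjamini-Hochberg adjustment, 4.32% were called, 1.98% lower and 2.33% higher, and the members' share of calls was no greater than that. The nuclear members nevertheless lay on the low side. Of the 91, 74 had a negative log2 fold change (81.3%), as did 8223 of the 16431 genes tested. In 49 of them both OPNKO libraries lay below both WT libraries (53.8%, against 25.0%), and in 5 both lay above, where the share over all genes was 27.7%. At an unadjusted p under 0.05, 25 nuclear members were lower (27.5%, against 9.54%) and 0 were higher (against 11.6%). On recovered reads edgeR called 2 members (4.96% of its genes) and DESeq2 called 5 (8.17%). Neither called a nuclear member higher, where they called 2.59% and 4.42% of their genes higher. Their median log2 fold change was -0.14, and that of all genes tested was -0.0006. Members of a complex are not independent of each other and share these 4 libraries, so their counts describe the libraries and are not a test of the genotype.

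**Figure D1:**
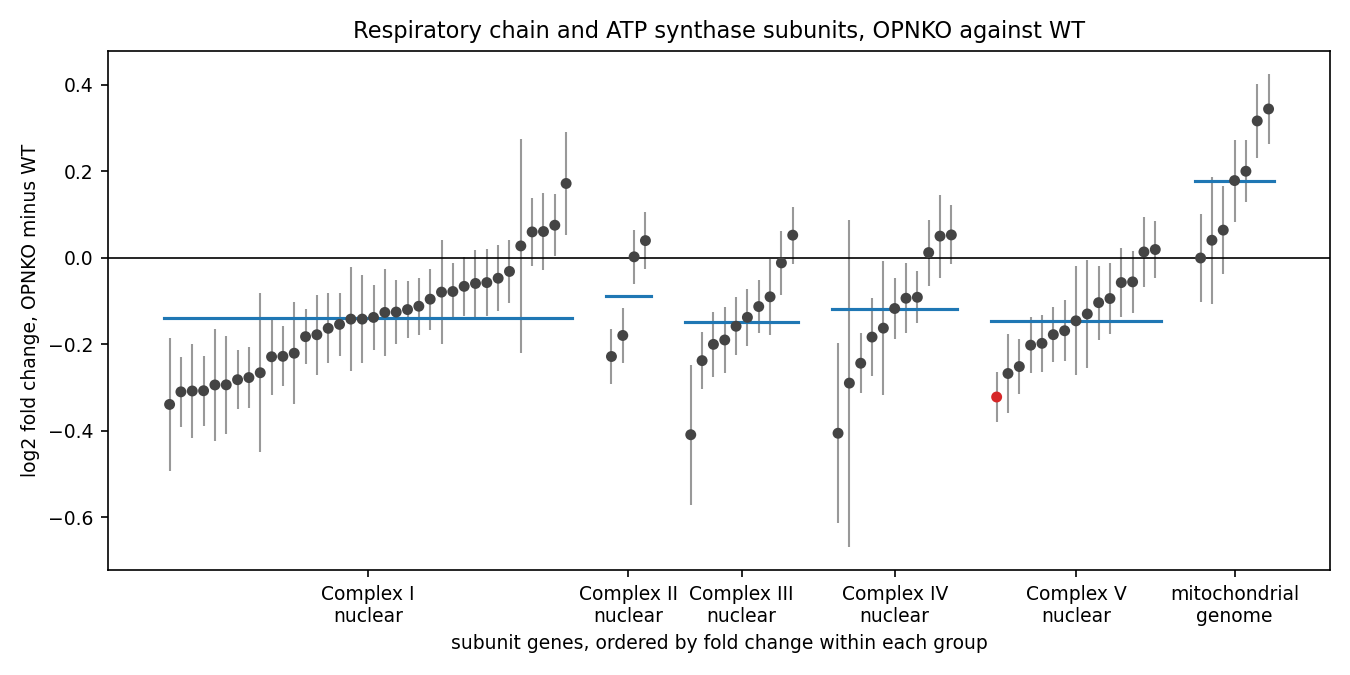
Log2 fold change (OPNKO minus WT, vertical axis) of each subunit gene, ordered within its complex and genome along the horizontal axis; bars are ± 1 SE from limma, blue lines are group medians and the red point is Atp5g3 (-0.32), the called member. Most nuclear points lie slightly below 0 in each of complexes I, III, IV and V, and 6 of the 7 mitochondrial protein-coding genes lie above 0.

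The differences were small. For 77 of the 91 nuclear members the 95% confidence interval of the fold change lay within 1.5-fold in either direction, and the median half-width of the interval was 0.19 on the log2 scale. A difference of 1.5-fold or more was therefore outside the interval of most nuclear members, while a difference of the size of their median could not be resolved gene by gene with 2 libraries a group.

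The called member belongs to the ATP synthase. Atp5g3 lies on chromosome 2 (GRCm38, chr2:73908447-73911326, minus strand) and had normalised read counts of 7861 and 7777 in WT against 6221 and 6288 in OPNKO. The libraries of each genotype were close to each other and the genotypes did not overlap. The means were 7819 ± 59.1 (SD, n = 2) and 6255 ± 47.4 (SD, n = 2), which gave a log2 difference of -0.32 with an SE of 0.06 and an adjusted p of 0.0290 in limma. With any 1 library left out the fold change stayed between -0.33 and -0.31, but limma's adjusted p was then 0.0864 to 0.263, so the gene was not called in any of these 4 fits. In the authors' deposited table Atp5g3 had a log2 fold change of -0.32 with an adjusted p of 0.0116.

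The same c subunit is also encoded by Atp5g1 and Atp5g2, which differ in the targeting peptide that is cut off on import. Atp5g3 made up 90.7% to 92.2% of the reads per kilobase of the 3 genes in every library. These shares depend on the principal transcripts, of 4715 bases for Atp5g1, 731 for Atp5g2 and 723 for Atp5g3. A shorter transcript of Atp5g1 would give Atp5g3 a lower share. Atp5g1 had 1198 and 1252 normalised reads in WT against 955 and 1083 in OPNKO, which did not overlap (log2 fold change -0.27, SE 0.09, limma adjusted p = 0.157). Atp5g2 had 531 and 470 in WT against 421 and 484 in OPNKO, which overlapped; near-identical transcripts of other genes cover 88.2% of its sequence, so its count is uncertain. The region around the annotated start of these 3 genes is shown because they encode the same mature protein and only Atp5g3 was called. The windows run from 250 bases before to 50 bases after the start, 5′ to 3′ on the gene's strand, from RefSeq on GRCm38.p6: Atp5g1 at chr11:96075582-96075881, Atp5g2 at chr15:102670998-102671297 and Atp5g3 at chr2:73911277-73911576, all on the minus strand. Capitals mark a match to the NRF1 motif.
Atp5g1: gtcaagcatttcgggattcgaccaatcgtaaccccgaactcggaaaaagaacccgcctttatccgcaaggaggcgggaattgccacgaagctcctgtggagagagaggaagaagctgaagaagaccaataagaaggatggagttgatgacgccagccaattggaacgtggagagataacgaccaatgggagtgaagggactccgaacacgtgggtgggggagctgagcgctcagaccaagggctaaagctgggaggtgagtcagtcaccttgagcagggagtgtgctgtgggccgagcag
Atp5g2: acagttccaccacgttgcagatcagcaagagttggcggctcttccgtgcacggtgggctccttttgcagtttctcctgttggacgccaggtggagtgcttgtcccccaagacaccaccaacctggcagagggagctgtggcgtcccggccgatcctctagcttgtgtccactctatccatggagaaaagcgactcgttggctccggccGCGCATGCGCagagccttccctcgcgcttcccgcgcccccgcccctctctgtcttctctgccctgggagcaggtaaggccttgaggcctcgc
Atp5g3: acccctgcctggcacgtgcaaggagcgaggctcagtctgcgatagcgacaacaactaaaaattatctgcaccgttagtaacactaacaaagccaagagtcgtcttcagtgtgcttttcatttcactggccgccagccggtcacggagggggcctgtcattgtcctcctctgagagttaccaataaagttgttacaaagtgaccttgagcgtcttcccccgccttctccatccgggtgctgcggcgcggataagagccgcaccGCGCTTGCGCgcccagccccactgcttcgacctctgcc
Nuclear respiratory factor 1 (NRF1), the ETS-family factor GABP and YY1 are known regulators of nuclear respiratory chain genes. The letters searched on both strands were GCGCA, any base and GCGC for NRF1, CCGGAAG for ETS factors and AANATGGCG for YY1, none of which contains another. Atp5g2 and Atp5g3 each held 1 NRF1 match and Atp5g1 held none of the 3 motifs. A window was found for 73 of the 91 nuclear members, 79 windows in all. Of these, 25.3% held the NRF1 letters, against 4.60% of all windows and 8.81% of the windows of genes tested here. For the ETS letters the shares were 21.5%, 8.86% and 15.9%, and for the YY1 letters 15.2%, 2.38% and 4.38%. A match is a string of letters and not a measured binding site.

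In the catalytic head of the ATP synthase, Atp5b had 25048 and 23817 normalised reads in WT against 22414 and 21065 in OPNKO. Atp5a1, the alpha subunit, had 26742 and 26910 in WT against 22973 and 23670 in OPNKO. In both genes the OPNKO libraries were lower without overlap, by log2 fold changes of -0.17 (SE 0.07) and -0.20 (SE 0.07), and neither passed the test (limma adjusted p = 0.227 and 0.137). Atp5o, the stalk subunit that joins head and membrane part, had 3199 and 3186 in WT against 2613 and 2752 in OPNKO (log2 fold change -0.25, limma adjusted p = 0.0802). Transcripts of other genes, which overlap it at its own place, match 48.8% of its sequence. Over the 15 complex V subunits the median was -0.15, 13 were negative and 7 did not overlap on the low side (46.7%, against 25.0% of all genes tested). Other subunits overlapped, such as Atp5e of the central stalk, with 2786 and 2767 against 2904 and 2726, which was picked as an example after its values were seen.

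**Figure D2:**
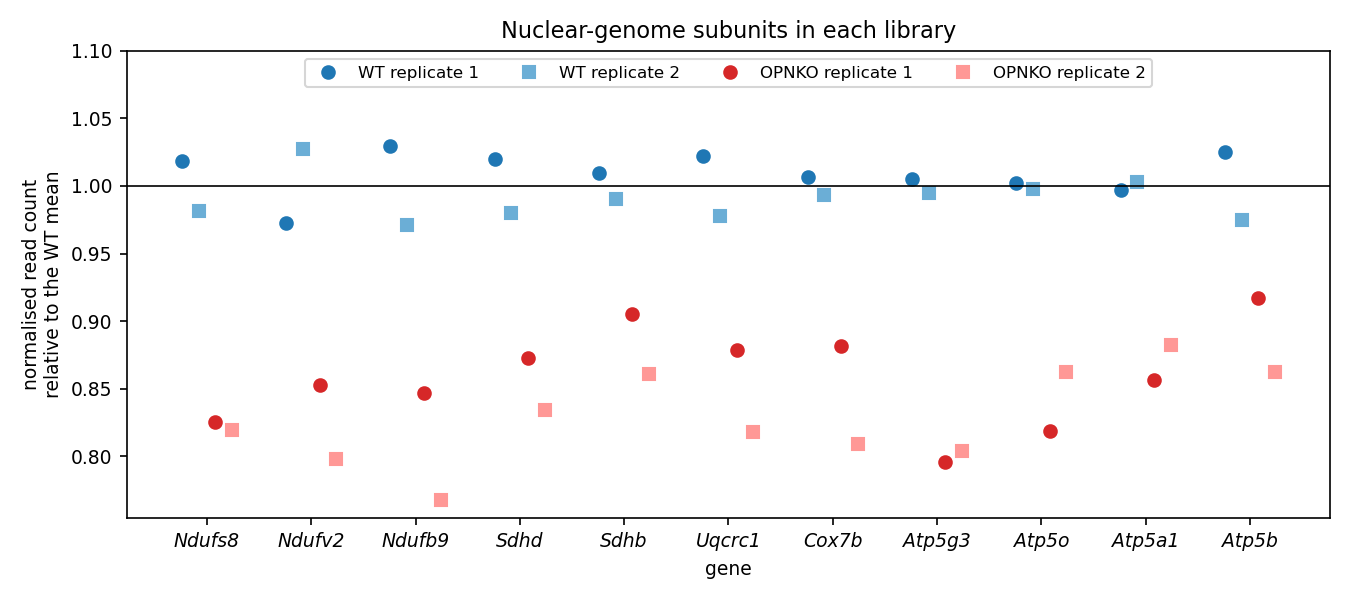
Normalised read count of 11 nuclear members divided by the mean of the 2 WT libraries (vertical axis, not from 0), 1 point per library; the genes were picked for a small p-value in their complex or a high level. Both OPNKO libraries lie below both WT libraries in each gene, which picking by p-value favours. This held in 49 of the 91 nuclear members, and Sdha and Ndufs1, which overlapped, are not shown. In Atp5g3 the libraries of a genotype lie close together (6221 and 6288 against 7861 and 7777).

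Complex I, the entry point of electrons from NADH, had 36 nuclear subunits in the table. None passed the test, 31 were negative and the median log2 fold change was -0.14. In 23 both OPNKO libraries lay below both WT libraries (63.9%, against 25.0% of all genes tested). Among the conserved catalytic subunits, Ndufs8, which holds iron-sulfur clusters, had 2004 and 1930 normalised reads in WT against 1623 and 1612 in OPNKO (log2 fold change -0.28, SE 0.07, limma adjusted p = 0.0705). Ndufv2, another iron-sulfur subunit, had 2533 and 2674 in WT against 2220 and 2077 in OPNKO (-0.28, SE 0.07, limma adjusted p = 0.0813). Neither gene overlapped between genotypes. The accessory subunit Ndufb9 had 1786 and 1684 in WT against 1469 and 1332 in OPNKO (-0.31, limma adjusted p = 0.0856). The transcript of another gene that overlaps it at its own place matches 28.7% of its sequence. By contrast Ndufs1, the largest iron-sulfur subunit, had 3799 and 3582 in WT against 3446 and 3779 in OPNKO, and the genotypes overlapped. Ndufs7, which holds the last iron-sulfur cluster before the quinone site, overlapped as well (954 and 1088 against 981 and 889). For Ndufv1, which takes the electrons from NADH, the counts were 3177 and 3180 in WT against 2907 and 3118 in OPNKO, a log2 fold change of -0.08 with a limma adjusted p of 0.553. All 7 catalytic subunits had a negative fold change, from -0.28 to -0.03.

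Complex II oxidises succinate and is also an enzyme of the TCA cycle. Its 4 subunits divided. Sdhd, a membrane anchor, had 5411 and 5203 normalised reads in WT against 4633 and 4428 in OPNKO (log2 fold change -0.23, SE 0.06, limma adjusted p = 0.0943). The iron-sulfur subunit Sdhb had 4077 and 4000 against 3657 and 3477 (-0.18, limma adjusted p = 0.165). In both the genotypes did not overlap. Sdha, the flavoprotein that binds succinate, had 14120 and 13144 in WT against 13807 and 14204 in OPNKO, and Sdhc, the other anchor, had 4262 and 4294 against 4183 and 4389. These overlapped, with log2 fold changes of 0.04 and 0.002 and 95% intervals of -0.12 to 0.20 and -0.14 to 0.15.

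Complex III with cytochrome c had 9 negative members of 10, a median of -0.15 and no call. In 7 both OPNKO libraries lay below both WT libraries (70%, against 25.0% of all genes tested). Uqcrc1, a core protein that scaffolds the complex, had 5501 and 5262 in WT against 4728 and 4403 in OPNKO (log2 fold change -0.24, SE 0.07, limma adjusted p = 0.0989). Cyc1, the haem-bearing cytochrome c1, had 1958 and 1888 against 1743 and 1607 (-0.20, limma adjusted p = 0.189), and the Rieske iron-sulfur protein gene Uqcrfs1 had 2588 and 2474 against 2226 and 2309 (-0.16, limma adjusted p = 0.234). The OPNKO libraries were lower in all 3 without overlap. Uqcrc2, the partner of Uqcrc1, had a log2 fold change of -0.11 (SE 0.06). Cycs, the mobile carrier cytochrome c, had 1721 and 1694 in WT against 1758 and 1632 in OPNKO, and overlapped (-0.01, 95% interval -0.19 to 0.16).

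Complex IV, where oxygen is reduced, had 4 of its 11 nuclear subunits lower without overlap (36.4%, against 25.0% of all genes tested). Of the 11, 8 were negative. The median log2 fold change was -0.12, which was -0.0022 without the second OPNKO library. Cox7b, a small membrane subunit, had 3475 and 3427 normalised reads in WT against 3042 and 2792 in OPNKO (log2 fold change -0.24, SE 0.07, limma adjusted p = 0.101). For Cox4i1 the counts were 10475 and 10249 against 10075 and 9057 (-0.12, SE 0.07, limma adjusted p = 0.397). Cox5a, which sits beside Cox4i1 on the matrix side, had 3509 and 3004 against 2977 and 2746 (-0.18, limma adjusted p = 0.301). Both had lower OPNKO libraries without overlap. Ndufa4, once counted with complex I and now placed with complex IV, had 1707 and 1665 against 1750 and 1748 (0.05, limma adjusted p = 0.708). Whether the complexes differ from each other in their response was not tested.

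Some subunits differed widely between libraries of the same genotype. Cox8a, a small complex IV subunit, had 3069 and 1861 normalised reads in the first and second WT library and 2981 and 1282 in the first and second OPNKO library. The first libraries were high and the second low in both genotypes, and the log2 fold change of -0.29 had an SE of 0.38. Cox6a1, another complex IV subunit, had 3446 and 2841 in WT against 3012 and 1851 in OPNKO (-0.41, SE 0.21, limma adjusted p = 0.320). In Uqcrq, a small complex III subunit, the WT counts of 1802 and 1869 were close and the OPNKO counts of 1675 and 1140 were not, although the genotypes did not overlap (-0.41, SE 0.16, limma adjusted p = 0.209). Among the 88 nuclear members with a mean count of 50 or more, 64 were lower in the second than in the first OPNKO library (median log2 difference -0.09) and 55 in the second than in the first WT library (median -0.02). The corresponding medians over all 11624 genes at that level were -0.01 and -0.03. Without the second OPNKO library, the median fold change of the nuclear members was -0.09 in place of -0.14.

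**Figure D3:**
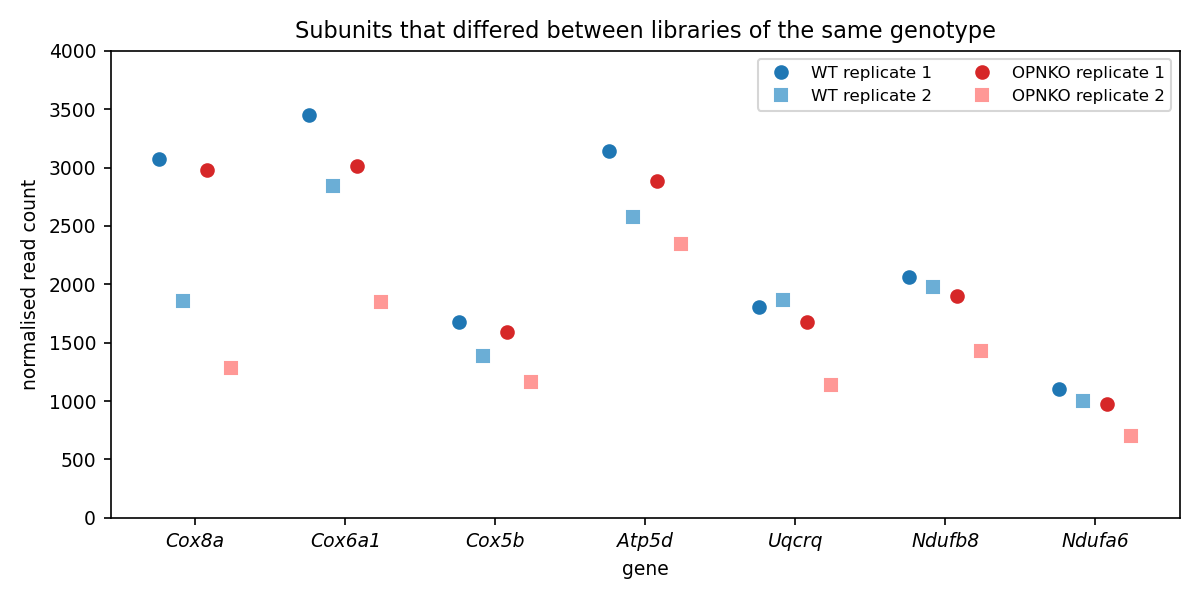
Normalised read counts (vertical axis, from 0) of subunit genes that differed between libraries of the same genotype, 1 point per library; the genes were picked for this spread. Cox8a is highest in the first library of each genotype (3069 and 2981) and lowest in the second (1861 and 1282).

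The mitochondrial genome gave the opposite picture for several protein-coding genes. The table analysed here has rows for 7 of its 13 protein-coding genes, for both ribosomal RNAs and for 7 of its 22 transfer RNAs; mt-Co2, mt-Co3, mt-Atp6, mt-Atp8, mt-Nd3 and mt-Nd4l were not analysed here. By limma none of the 16 mitochondrial members passed the test. At an unadjusted p under 0.05, 3 were higher, as were 11.6% of all genes tested. At that level 1 was lower (6.25%, against 9.54%). EdgeR called 1 member, where it called 4.96% of its genes, and DESeq2 called 3, where it called 8.17%. Of the 7 protein-coding genes, 6 had a positive log2 fold change, and the median was 0.18. In 4 both OPNKO libraries lay above both WT libraries, which held in 27.7% of all genes tested. The complex I gene mt-Nd2 had 61231 and 56878 normalised reads in WT against 75084 and 71930 in OPNKO (log2 fold change 0.32, SE 0.09, limma adjusted p = 0.0896). For mt-Nd6, the only protein-coding gene read from the other strand, the counts were 9950 and 10089 in WT against 13658 and 11845 in OPNKO (0.34, SE 0.08, limma adjusted p = 0.0626). The OPNKO libraries were higher in both genes without overlap. The sources used here do not say whether reads were counted by strand; if they were not, reads of mt-Nd6 and of RNA from the opposite strand at its place cannot be told apart.

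By the authors' deposited values, 4 members passed an adjusted p under 0.05, where 4.34% of all rows did. They were mt-Nd2 (log2 fold change 0.32, adjusted p 0.00207 in the authors' deposited table), mt-Nd6 (0.35, adjusted p 0.00842 in the authors' deposited table), mt-Rnr1 (-0.36, adjusted p 0.00487 in the authors' deposited table) and Atp5g3. That is 2 higher and 2 lower members. Of these, limma on the same normalised counts called only Atp5g3.

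The other complex I genes of the mitochondrial genome ran from little to no difference. The gene mt-Nd4 had 41926 and 41538 in WT against 47688 and 48197 in OPNKO (0.20, SE 0.07, limma adjusted p = 0.174), without overlap; a nuclear gene's transcript matches 63.6% of its sequence, so its count is uncertain. For mt-Nd1 the counts were 104033 and 94392 against 108460 and 98937, and for mt-Nd5 they were 99811 and 91466 against 100564 and 90721. Both overlapped, with log2 fold changes of 0.06 and -0.0005. The complex III gene mt-Cytb had 107127 and 112790 in WT against 126026 and 122809 in OPNKO (0.18, SE 0.09, limma adjusted p = 0.333), without overlap. The complex IV gene mt-Co1, with 431406 and 452523 against 456581 and 452323, overlapped (0.04, SE 0.15); a nuclear gene's transcript matches 31.3% of its sequence. The small ribosomal RNA gene mt-Rnr1 lay in the other direction, with 13929 and 13731 in WT against 11546 and 10055 in OPNKO (-0.36, SE 0.08, limma adjusted p = 0.0537). The large ribosomal RNA gene mt-Rnr2 overlapped, with 60285 and 51872 against 58072 and 44016. Both ribosomal RNA genes were named after their values were seen.

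**Figure D4:**
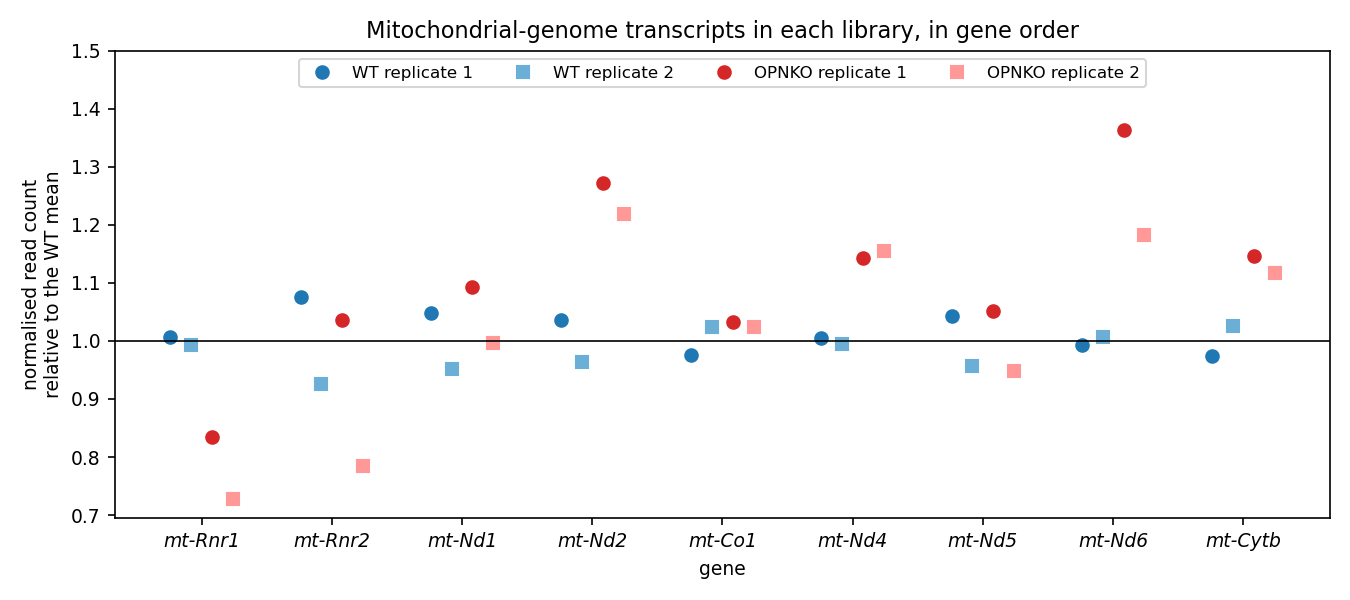
Normalised read count of mitochondrial ribosomal RNA and protein-coding genes divided by the mean of the 2 WT libraries (vertical axis, not from 0), 1 point per library. Both OPNKO libraries lie above both WT libraries for mt-Nd2 and mt-Nd6 and below them for mt-Rnr1, and the genotypes overlap for mt-Co1 and mt-Nd5.

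Set against each other, the genomes differed in direction. Mitochondrial protein-coding rows took 1.89% and 1.97% of all normalised reads in WT and 2.03% and 2.01% in OPNKO. The nuclear members took 0.589% and 0.593% in WT and 0.538% and 0.521% in OPNKO. Their ratio was 3.21 and 3.32 in WT against 3.78 and 3.86 in OPNKO, without overlap (means 3.26 ± 0.0745 and 3.82 ± 0.0587, SD, n = 2 each). An exact two-sided permutation test over the 4 libraries gave p = 0.333, the smallest that 2 against 2 allows, so this test could not have reached the threshold whatever the ratios. All mitochondrial rows together, ribosomal and transfer RNA included, were 2.05% and 2.12% in WT and 2.19% and 2.13% in OPNKO.

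Subunits with alternative forms were read per kilobase within each family. Cox4i2, a form induced by low oxygen in other cells, was at 13.4 against 13025 for Cox4i1. The heart and muscle form Cox6a2 was at 12.6 against 4882 for Cox6a1, and the muscle form Cox7a1 at 184 against 4135 for Cox7a2 and 3079 for Cox7a2l, a factor that joins complexes III and IV into supercomplexes. Ndufa4l2, a hypoxia-induced relative of Ndufa4, had 0 and 15 reads in WT against 2 and 1 in OPNKO. The 15 reads were in the second WT library, which had the most fibroblast, endothelial, epithelial, erythroid and neutrophil marker counts. Cox4i2 and Cox6a2 also had their highest counts there, at 17 and 16 reads, while Cox7a1 had its highest normalised count in the first WT library. Whether other cells gave these reads was not tested. In level, an exception among these minor forms was Cox6b2, known as the testis form in mammals. It was at 1092 against 10686 for Cox6b1, or 8.72% to 10.2% of the family in each library. Its counts were 727 and 641 in WT against 620 and 566 in OPNKO (log2 fold change -0.20, SE 0.11, limma adjusted p = 0.338). The 5 minor forms all had negative fold changes and 0 passed the test by limma, at an adjusted or an unadjusted p. Neither edgeR nor DESeq2 called Cox6b2 or Cox7a1; Cox6a2 and Ndufa4l2 had no adjusted p from these tools. With at most 17 reads in a library, no difference was detectable for Cox4i2, Cox6a2 and Ndufa4l2 at this depth.

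**Figure D5:**
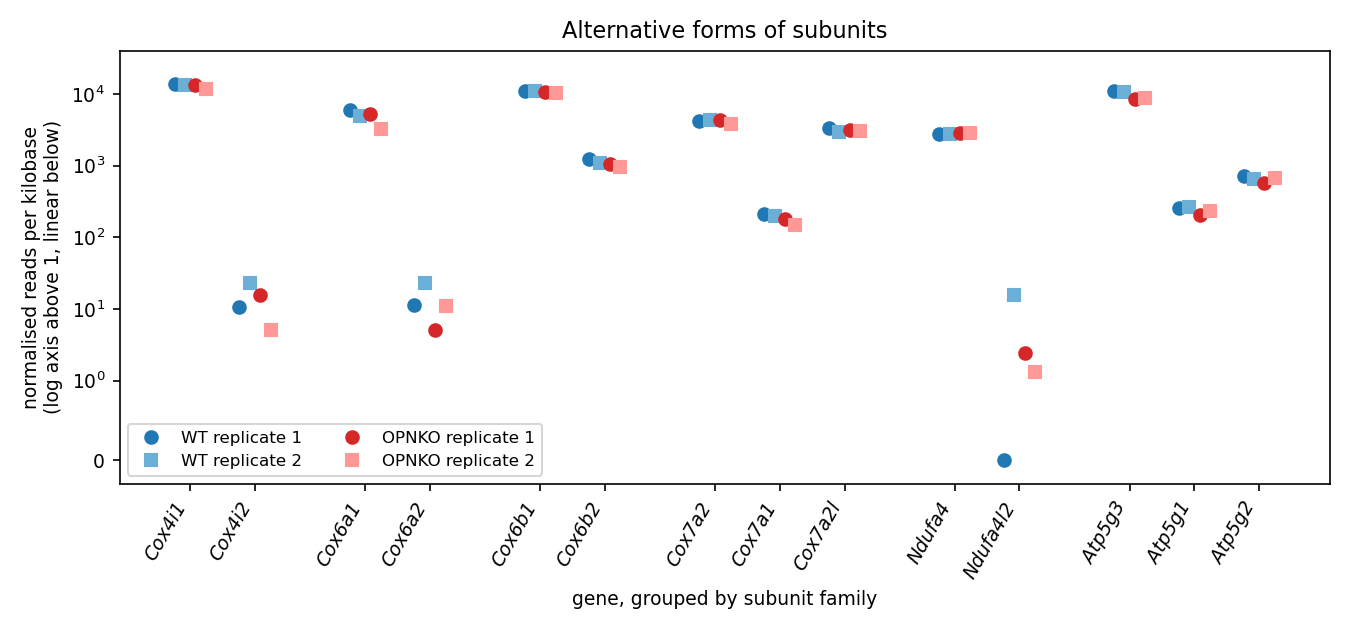
Normalised reads per kilobase (vertical axis, logarithmic above 1 and linear below) of the forms of each subunit family, 1 point per library. Cox4i1 (mean 13025) lies far above Cox4i2 (13.4) in all 4 libraries, and Cox6b2 (1092) is the nearest of the tissue forms to its partner Cox6b1 (10686). Cox7a2l (3079), which is not a tissue form, lies nearer to Cox7a2 (4135).

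Each list of genes that build, regulate or feed the chain had 1 or 2 calls by limma, which called 4.32% of all genes tested. Of 43 respiratory chain assembly factors, 1 rose and 0 fell: Cox18, which helps insert a complex IV core subunit into the membrane, was at 208 ± 1.08 in WT and 349 ± 30.6 in OPNKO (SD, n = 2 each; log2 fold change 0.74, limma adjusted p = 0.0358). Cmc2, a twin-cysteine protein of complex IV assembly, had 377 and 375 against 486 and 478 (0.36, limma adjusted p = 0.122). The list's median was -0.05. Of 38 genes for mitochondrial DNA, RNA and translation, Polg, the mitochondrial DNA polymerase, rose from 2132 ± 46.8 to 2698 ± 110 (0.34, limma adjusted p = 0.0408), 0 fell, and the median was -0.04. Tbrg4, which acts on mitochondrial RNA stability, had 1574 and 1638 in WT against 1250 and 1290 in OPNKO, without overlap (-0.34, limma adjusted p = 0.0513). Of 21 regulators of mitochondrial biogenesis, Pparg, the nuclear receptor that alveolar macrophages need to develop, rose from 5547 ± 358 to 7390 ± 423 (0.41, limma adjusted p = 0.0283), 0 fell, and the median was 0.03. Prkaa1, a catalytic subunit of the energy sensor AMPK, had 3986 and 4021 against 4758 and 4795, without overlap (0.25, limma adjusted p = 0.0623).

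Of 28 genes of the TCA cycle and pyruvate entry, 1 rose and 1 fell, with 23 negative and a median of -0.11. Idh3a, a subunit of the NADH-producing isocitrate dehydrogenase, fell from 2664 ± 52.5 to 2046 ± 14.7 (SD, n = 2 each; -0.38, limma adjusted p = 0.0242). Pdk4, a kinase that inhibits pyruvate dehydrogenase, rose from 141 ± 39.4 to 301 ± 35.3 (1.11, limma adjusted p = 0.0417). Of 32 carriers, porins, uncoupling proteins and quinone enzymes, 1 rose and 1 fell. Ucp3, an inner membrane protein of the uncoupling family, rose from 885 ± 227 to 1616 ± 147 (0.89, limma adjusted p = 0.0322). Slc25a4, which exchanges ADP for the ATP made by the synthase, fell from 4392 ± 106 to 3452 ± 253 (-0.35, limma adjusted p = 0.0451). The list's median was -0.10. None of the calls in these 5 lists held in every fit with 1 library left out: without either WT library, or without the second OPNKO library, each list had 0 calls, and without the first OPNKO library the biogenesis and carrier lists had 1 call each.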

How the data were processed

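Bulk RNA-seq of sorted alveolar macrophages was analysed in 4 libraries, 2 WT and 2 OPNKO, of 10 that were pooled on a lane per the labels, which also mention single-cell sequencing. Per the submitters' processing notes, the tools were HTSeq 0.6.1p1, STAR 2.4.1d, Trim Galore 0.4.0 and edgeR; the sources used here do not give build, annotation or strand setting. Per the file headers, the authors deposited a normalised value per library, a signal (reads over a size factor), with their log2 fold change, Wald score, p-value and adjusted p-value. Whole reads were recovered for 100% of values (tolerance 0.001 reads). The table's 2 unlabelled columns were left out, and 1 row has a blank symbol.

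Genotypes were compared (OPNKO minus WT, no covariate) by limma-trend, limma 3.58.1 in R 4.3.3, on the log2 of the deposited value plus 1, over the 16431 genes with a mean of at least 1 (324 left out), with Benjamini-Hochberg adjustment over all of them and calls under 0.05. The pseudocount understates the change of low genes. Count tests on the recovered reads (edgeR 4.0.16, DESeq2 1.42.0), other scalings, filters and pseudocounts, each library left out and the replicate number as a block were alternatives. A fit without a library assumes that the lone sample varies like the other group. The test was tested on simulated data. Intervals are 95% and only 2 libraries a group limit them. Genes were matched by Ensembl identifier to GENCODE M21 (GRCm38), which gave positions and principal transcripts. Copies are transcripts of other genes with at least 98% identity over 75 bases or more on either strand (BLAST 2.17.0). Genes that overlap a member at its own place, also on the opposite strand, are counted among them. Tables and figures used Python 3.11.15, pandas 2.3.3, numpy 2.4.6, scipy 1.17.1 and matplotlib 3.10.9.

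The members, gene lists and tests were chosen with earlier results of these data known. Named genes are Spp1, called members, per complex the 3 smallest p-values and 2 highest means, all mitochondrial protein-coding genes, catalytic subunits, alternative forms, and called genes or the smallest p-values of each pathway list; others are said to be picked after their values were seen. Of the genes the rule gives, 1 is not reported here.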

Additional observations from a re-analysis of the deposited data

How the results depend on the processing

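With 2 libraries a group, the count of called members depends on the processing. In place of 1 called member, TMM factors gave 2, DESeq2 size factors 2, scaling to the nuclear-genome total 5, edgeR's quasi-likelihood test 2 and DESeq2 5. Nuclear calls were 2 in place of 1 under nuclear-total scaling and 2 under DESeq2. Mitochondrial calls were 1 in place of 0 with TMM factors, 1 with DESeq2 size factors, 3 under nuclear-total scaling, 1 by edgeR and 3 by DESeq2. Of all genes, 768 were called with TMM factors, 721 with DESeq2 size factors and 853 under nuclear-total scaling, in place of 709. EdgeR called 694 of its genes and DESeq2 1124. In the mitochondrial gene expression list, TMM factors, DESeq2 size factors, pseudocount 5, edgeR and DESeq2 each gave 2 calls in place of 1. The biogenesis list had 2 under nuclear-total scaling and 4 by DESeq2 in place of 1, the TCA list 4 by DESeq2 in place of 2, and the carrier list 1 of 2 with a mean of at least 50. Nuclear-total scaling moved the complex II median from -0.09 to -0.1079. The cause of these differences was not tested.

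Leaving out each library in turn gave 0 to 4 called members, 0 to 3 nuclear, 0 to 1 mitochondrial, and 4 to 545 of all genes: 4 without the first WT library, 11 without the second, 545 without the first OPNKO library and 405 without the second. The lists gave 0 for assembly factors, 0 for mitochondrial gene expression, 0 to 1 for biogenesis, 0 for the TCA cycle and 0 to 1 for carriers. Medians ranged from -0.1844 to -0.0891 for nuclear members. The median of all 16 mitochondrial members, ribosomal and transfer RNA rows included, was 0.1213 and ranged from 0.0158 to 0.3719. The 0.18 given above is the median of the 7 protein-coding genes only. By complex the medians ranged from -0.1763 to -0.1002 for I, -0.1026 to -0.0845 for II and -0.1737 to -0.1321 for III. They were -0.1941 to -0.0022 for IV and -0.1976 to -0.1143 for V. The mitochondrial share differed by 0.042 to 0.1058 percentage points. Sdhc turned to -0.0021 with TMM factors, -0.0062 with DESeq2 size factors, -0.017 under nuclear-total scaling, -0.0114 by edgeR and -0.0058 by DESeq2, and ranged from -0.0325 to 0.0370 over the alternatives. With a library left out, the sign also turned in other genes, whose fold changes ranged from -1.384 to 0.0069 (Cox4i2), -0.1185 to 0.0662 (Cox7a2l), -0.898 to 0.3184 (Cox8a), -0.0654 to 0.0419 (Cycs), -2.5263 to 1.4408 (Ndufa4l2), -0.098 to 0.0349 (Ndufs1), -0.0119 to 0.0914 (Sdha), -0.0062 to 0.1341 (mt-Nd1) and -0.0748 to 0.0738 (mt-Nd5).

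The labels number the libraries 1 and 2 in both genotypes. Deviations of same-numbered libraries had a Pearson correlation of -0.0305 over 11624 genes, so the numbers were not taken as pairs. Over 98 members the Pearson value was 0.630. For the 88 nuclear members among them it was 0.51, and the rank correlation (Spearman) was 0.24. Over all 11624 genes the rank correlation was 0.079. With the replicate number as a block, 12 of the 107 members were called, 10 nuclear and 2 mitochondrial. Calls rose over all genes too, to 1566 of the 16431 tested in place of 709. The lists then had 2 (mitochondrial gene expression), 5 (biogenesis) and 4 (TCA cycle).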

Other observations

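The 7 transfer RNA rows were near the limit of detection, with normalised read counts from 0 to 86.8 in single libraries. For mt-Tp the counts were 37.3 and 15.6 in WT and 43.4 and 41.1 in OPNKO, and for mt-Tm they were 2.19 and 3.90 against 5.71 and 8.71. These 2 were picked after their values were seen, as the 2 of the 7 rows in which both OPNKO libraries were higher without overlap. That held in 27.7% of all genes tested. Neither passed the test (limma adjusted p = 0.394 and 0.443).

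Of the 10 nuclear members that are not subunits, 6 had a negative log2 fold change and the median was -0.03. Ndufaf6, an assembly factor of complex I picked after its values were seen, had 96.5 and 80.0 in WT and 45.7 and 61.0 in OPNKO, without overlap (log2 fold change -0.72, SE 0.29, limma adjusted p = 0.207).

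Near-identical transcripts of other genes, some of which overlap the member at its own place, cover over 50% of the sequence of 8 members. For 76 members, Atp5g3, mt-Nd2 and mt-Rnr1 among them, there were none.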
